A study of Drosophila melanogaster with 6 samples.

Results

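The genes described here are 7 enzyme genes of the Drosophila melanogaster X chromosome, Pgd, Zw, v, ras, r, Hex-A and Gapdh2, of the kind that served as markers in early work on dosage compensation. They were taken by gene symbol from the platform annotation of the array, over all probe sets and all 6 arrays. Of the 7 genes, 3 (Hex-A, ras and r) have a probe set of their own, 1 each, out of 11982 genes with such a probe set, 1873 of them on the X. Pgd appears only in 1 probe set that the annotation assigns to Pgd and D2hgdh together, and values of that probe set cannot be credited to either gene. For Zw, v and Gapdh2 no probe set is named in the annotation used here, and these genes were not analysed here. A RefSeq gene table of the assembly Release 6 plus ISO1 MT places all 7 genes on the X.

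Male larvae in their last larval instar were compared between 2 genotypes, with 3 arrays each. The mutants were yw/Yy+;msl21/msl21, homozygous for msl21, an allele of msl2 induced by the chemical mutagen EMS. The controls were yw/Yy+;msl21/+ and thus carried 1 mutant copy, although their titles name them wt. Both genotypes shared the yw X chromosome and the Y chromosome marked y+. Each array held 1 independent RNA preparation from a pool of at least 50 whole larvae, so the replicate is the pool.

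Male flies have 1 X chromosome, and the MSL complex, of which MSL2 is a subunit, binds it and raises the expression of its genes towards the output of the female pair. The enzyme genes belong to well known pathways of larval metabolism. Hex-A encodes a hexokinase and Gapdh2 a glyceraldehyde-3-phosphate dehydrogenase of glycolysis, while Zw (glucose-6-phosphate dehydrogenase) and Pgd (6-phosphogluconate dehydrogenase) encode the NADPH-forming steps of the pentose phosphate pathway. The gene v encodes tryptophan 2,3-dioxygenase, which opens the way to the brown eye pigment. The gene ras (raspberry, not the Ras oncogene) encodes IMP dehydrogenase of guanine nucleotide synthesis, and r (rudimentary) the multifunctional enzyme that starts pyrimidine synthesis.

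The arrays were not alike within the mutant group, and this touches the values below. In mutant replicate 1 the 7 salivary glue genes had a median of -6.80 relative to the control mean (log2) and the 3 measured fat body genes (of 6 listed) one of -1.97. In mutant replicate 2 these medians were 0.72 and 1.15, and in mutant replicate 3 they were 0.14 and 0.28. Midgut, testis and nervous system genes (6 of 8, 10 of 10 and 4 of 6 measured) had medians of 1.06, -0.82 and 0.09 in mutant replicate 1, of 0.25, -0.02 and -0.14 in mutant replicate 2 and of 0.78, -0.73 and 0.22 in mutant replicate 3. The midgut genes did not move alike. Their mutant minus control differences (log2) ran from -0.48 for Jon65Ai to 3.20 for Mal-A6, with 5 above 0 and 1 below. Their summed level (log2) was 15.17, 14.61 and 14.83 in mutant replicates 1 to 3 and between 14.55 and 14.83 in the controls. As a sign of RNA quality, 3' control probe sets exceeded their 5' partners by 2.19, 1.33 and 1.88 on average in mutant replicates 1 to 3, and by 1.80 to 1.95 in the control arrays. The pairs averaged include 1 named for GAPDH whose 3' and 5' probe sets correlated with Gpdh1 at 0.99 and -0.2. That pair may not measure a single transcript, which limits this measure. In whole larvae, fewer cells of a type and less RNA per cell cannot be told apart. Among 776 X-linked genes in the brighter 50% of genes, the median difference (mutant minus control, log2 throughout) was -0.27, and 643 (82.9%) were below 0. Among 5170 genes of 2L, 2R, 3L and 3R in the brighter 50% the median was 0.04, and 44.6% were below 0. The X-linked shift was not alike in the mutant arrays. With each gene centred on its mean, the X-linked median was -0.17, 0.01 and -0.23 in mutant replicates 1 to 3. In control replicates 1 to 3 it was 0.20, 0.12 and 0.10. The autosomal medians were 0.08, 0.10 and -0.09 in the mutants and 0.02, -0.03 and -0.01 in the controls. The X-linked median of -0.27 thus rests less on mutant replicate 2. The values are RMA values, which are set relative to the other genes of an array.

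None of the measured X-linked enzyme genes differed detectably between the genotypes. The differences of Hex-A, ras and r were 0.01, 0.10 and -0.12, with a median of 0.01, and 1 of the 3 was below 0. In limma's test over all 18769 probe sets that are no controls, 0 of the 3 had an adjusted p under 0.05 (0.997 to 0.999), and 0 had an unadjusted p under 0.05. That test called 0.032% of all probe sets. In all 3 genes the mutant and control values overlapped, while the groups did not overlap in 11.9% of all probe sets. Among the brighter X-linked genes the mutants lay wholly below the controls in 29.9% and wholly above in 1.03%. With 3 genes, no share was read against these percentages.

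Hex-A, which phosphorylates glucose at the entry into glycolysis, had log2 values of 8.39, 7.70 and 8.08 in mutant replicates 1, 2 and 3. The control values were 8.30, 8.14 and 7.70. Each group thus held a high, a middle and a low array, and the ranges nearly coincided. The means were 8.06 ± 0.34 in the mutants and 8.05 ± 0.31 in the controls (SD, n = 3 each), a difference of 0.01 (SE 0.23, limma adjusted p = 0.999). The 95% interval of the difference ran from -0.54 to 0.56, or from 0.689 to 1.47 times the control level. The sign turned when some single arrays were left out: the difference was -0.16 without control replicate 3 and -0.15 without mutant replicate 1. Without mutant replicate 2 the difference stayed above 0, at 0.19.

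ras, which carries IMP towards GMP, had log2 values of 9.18, 10.06 and 9.07 in mutant replicates 1, 2 and 3 and of 9.55, 9.23 and 9.22 in control replicates 1, 2 and 3. Mutant replicate 2 was the highest of the 6 arrays, and the other mutant arrays lay just below the lowest control. The means were 9.43 ± 0.54 in the mutants and 9.33 ± 0.19 in the controls (SD, n = 3 each). The difference was 0.10 (SE 0.28, 95% interval -0.55 to 0.75, limma adjusted p = 0.998). It was -0.21 (SE 0.15, limma adjusted p = 0.511) without mutant replicate 2, and 0.23 without mutant replicate 1. The suffix of this probe set marks probes that match more than one transcript in the array maker's naming, so other transcripts may add to its signal. The probe sets used below for D2hgdh, Eno, Pfas, su(r) and Idh carry the same suffix, and the same limit holds for them.

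The gene r, whose product carries the first steps of pyrimidine synthesis on a single protein, had log2 values of 7.31, 7.01 and 6.98 in mutant replicates 1, 2 and 3. In the controls they were 7.75, 7.10 and 6.79, so that the highest and the lowest of the 6 arrays were both controls. The means were 7.10 ± 0.18 in the mutants and 7.21 ± 0.49 in the controls (SD, n = 3 each). The difference was -0.12 (SE 0.26, 95% interval -0.72 to 0.49, limma adjusted p = 0.997). Without control replicate 1 it was 0.15, so its sign rested on that array, and without control replicate 3 it was -0.33.

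The probe set shared by Pgd and D2hgdh had log2 values of 9.26, 9.31 and 9.72 in mutant replicates 1, 2 and 3 and of 9.69, 9.88 and 9.05 in control replicates 1, 2 and 3. All mutant values lay between the lowest and the highest control. Its difference was -0.11 (SE 0.25, 95% interval -0.69 to 0.48, limma adjusted p = 0.998), and it was -0.35 without control replicate 3 and 0.07 without control replicate 2. D2hgdh, which encodes D-2-hydroxyglutarate dehydrogenase and lies next to Pgd on the X, also has a probe set of its own. There the values were 10.75, 10.06 and 10.31 in the mutants and 11.00, 10.89 and 10.43 in the controls. The difference was -0.40 (SE 0.23, 95% interval -0.95 to 0.15, limma adjusted p = 0.765), with 2 of 3 mutant values below the lowest control. As the shared probe set cannot be divided between the genes, it gives no value for Pgd itself.

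**Figure D1:**
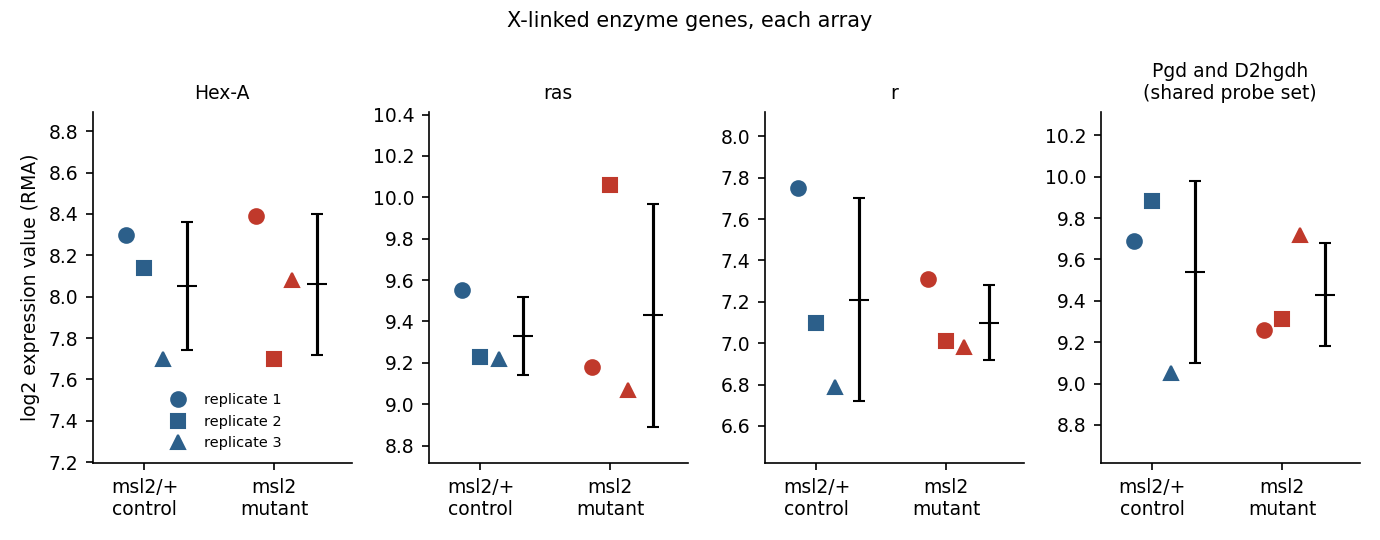
Log2 expression values (RMA) of Hex-A, ras, r and the probe set shared by Pgd and D2hgdh in each array (blue, heterozygous controls, and red, msl2 mutants). The marker shape gives the replicate number, which was not used to pair arrays in the main fit. Black bars are the group mean and SD (n = 3), and each panel has its own axis of equal length; the groups overlap in all 4 panels, and mutant replicate 2 stands high for ras at 10.06.

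Whether these genes behaved unlike other X-linked genes was asked by centring the arrays on the median of the brighter X-linked genes before the fit, a setting chosen after seeing the data. Relative to the X-linked median, the difference was 0.28 (SE 0.25, 95% interval -0.31 to 0.87) for Hex-A, 0.37 (SE 0.23, 95% interval -0.16 to 0.90) for ras and 0.15 (SE 0.25, 95% interval -0.42 to 0.73) for r. Their limma adjusted p values were 0.464, 0.346 and 0.656, where this fit called 0.0959% of all probe sets. All 3 differences were thus above the X-linked median, and each interval held 0. In rank, Hex-A had a higher difference than 83.6% of the brighter X-linked genes, ras than 88.9% and r than 70.0%. In the fit without centring, the X-linked median of -0.27 lay inside the 95% interval of each gene, and so did the autosomal median of 0.04. At this precision neither the absence of a difference nor one of the size typical of the X could be told for any of these genes.

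**Figure D2:**
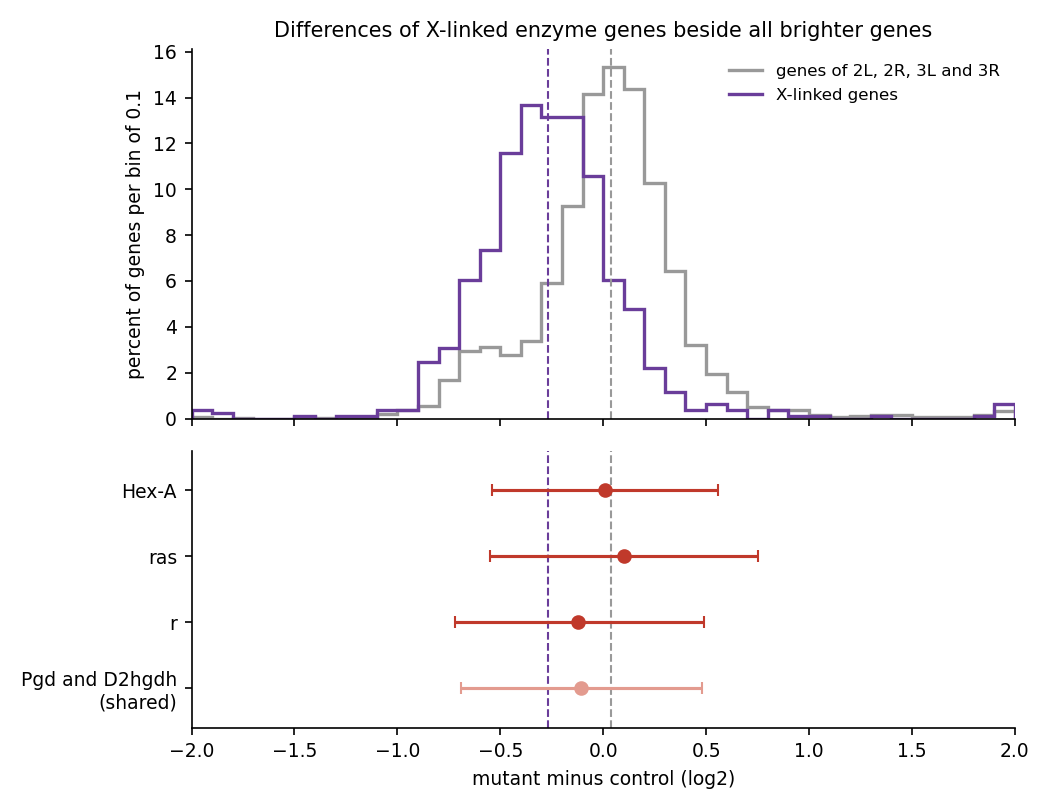
Upper panel: distribution of the difference (mutant minus control, log2) over 776 X-linked genes (purple) and 5170 genes of 2L, 2R, 3L and 3R (grey) in the brighter 50%, as percent of genes per bin of 0.1, the outermost bins holding all values beyond them. Lower panel: difference and 95% interval of Hex-A, ras, r and the shared probe set, with dashed lines at the medians of -0.27 and 0.04; every interval covers both lines.

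The spread between arrays was set against that of the brighter X-linked genes. The control SD of r, 0.49, was larger than that of 97.3% of the brighter X-linked genes, whose median control SD was 0.150. For Hex-A and ras the corresponding shares were 84.8% and 61.6%. The mutant SD of ras, 0.54, was larger than that of 82.1% of these genes, whose median mutant SD was 0.273, against 62.9% for Hex-A and 28.9% for r. In level, Hex-A, ras and r were brighter than 77.0%, 89.0% and 65.4% of all probe sets. The median level of the brighter X-linked genes was 8.27, above both group means of Hex-A and r and below those of ras. Whether RMA compressed the differences of these genes was not tested.

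Across the 6 arrays the genes did not share a single pattern. As descriptions over 6 arrays of 2 genotypes, the Pearson correlation was 0.75 between Hex-A and r, -0.42 between Hex-A and ras and 0.16 between ras and r. Hex-A and r were both higher in control replicate 1 than in control replicate 3. The 7 measured muscle genes (of 11 listed) moved with them there, with medians of 0.30 and -0.23 relative to the control mean, and their summed level was between 14.91 and 15.28 in the controls and at 14.95 in all 3 mutants (log2). Its part in the values of Hex-A and r was not tested. The mean of the centred profiles of the 3 genes was highest in control replicate 1 (0.34) and lowest in control replicate 3 (-0.29). The X-linked genes most like this mean profile were HDAC6 (r = 0.99), Bx42 (0.988) and CG6340 (0.983), out of 773 brighter X-linked genes. The most alike autosomal genes were Ask1 (0.986), sktl (0.981) and CG1598 (0.976), out of 5170. HDAC6, for example, had 7.78, 7.77 and 7.49 in the mutants and 8.0, 7.68 and 7.36 in the controls. Such correlations are the highest picked from many genes over 6 points.

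The X-linked genes around the enzyme genes had a median difference below 0 at every locus. For each of the 7 loci, measured or not, the nearest 5 brighter X-linked genes on either side were taken by gene order, without regard to their values. Of these 70 genes, 57 (81.4%) had a difference below 0, with a median of -0.29, close to the values for all brighter X-linked genes. The median of the 10 neighbours was -0.35 at Pgd (7 below 0), -0.36 at Zw (9 below 0), -0.24 at v (10 below 0), -0.37 at Gapdh2 (9 below 0) and -0.35 at r (8 below 0). It was -0.21 at ras (8 below 0) and -0.12 at Hex-A (6 below 0). Hex-A, ras and r each lay above the median of their neighbours. No value of the neighbours stands in for Zw, v or Gapdh2, which were not analysed here.

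**Figure D3:**
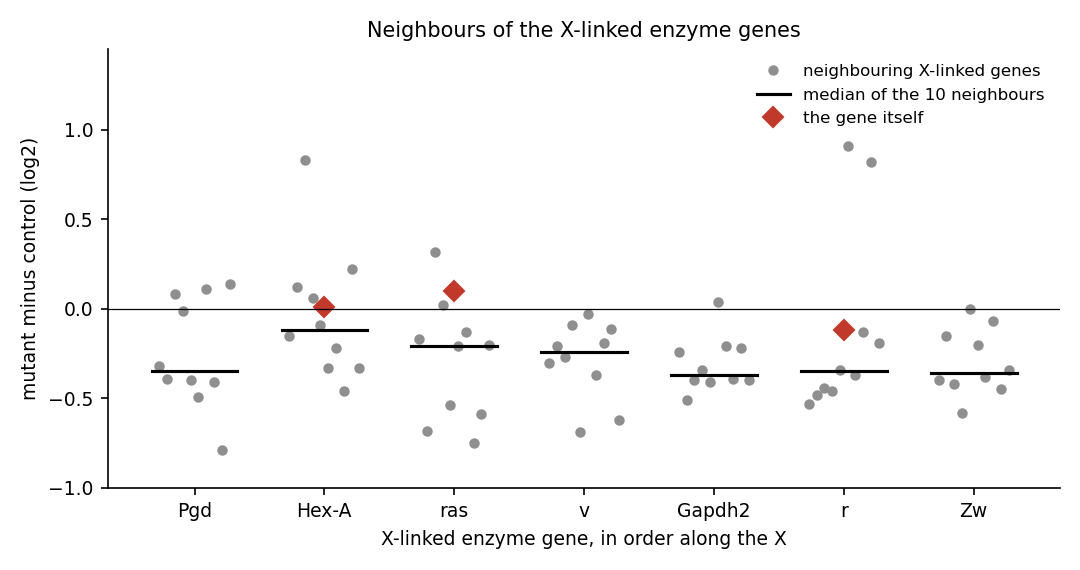
Difference (mutant minus control, log2) of the 10 nearest brighter X-linked genes (grey points) of each of the 7 X-linked enzyme genes in their order along the X, with their median (black line) and, where it was measured by a probe set of its own, the enzyme gene itself (red diamond). The medians lie between -0.37 and -0.12, and the diamonds of Hex-A (0.01), ras (0.10) and r (-0.12) lie above the lines of their loci.

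In glycolysis, the pathway of Hex-A and Gapdh2, 0 of 13 measured genes (of 16 listed) passed limma's test in either direction, at adjusted or unadjusted p, with 8 above 0, 5 below 0 and a median of 0.06. Hex-A is the only X-linked gene among the 13. Gapdh1, the autosomal glyceraldehyde-3-phosphate dehydrogenase gene on 2R, had 13.01, 13.25 and 13.19 in the mutants against 13.16, 13.06 and 12.95 in control larvae, a difference of 0.09 (SE 0.13, limma adjusted p = 0.971). The members with the smallest p were Pglym87, of the phosphoglycerate mutase family, at -0.37 (SE 0.21) and Eno, the enolase gene, at 0.23 (SE 0.18), with limma adjusted p of 0.765 and 0.854. In control replicate 3, where Hex-A had its low control value, 8 of the 13 genes had their lowest value, against 16.1% of all brighter genes. The 8 include Hex-A itself, and the count was not planned in advance, so it is a description only.

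Hex-A was also set against Hex-C, a hexokinase gene on 2R, within each array. Hex-C had 7.64, 5.85 and 7.33 in the mutants and 7.44, 7.40 and 7.07 in the controls, so that mutant replicate 2 stood alone at the bottom. The difference Hex-A minus Hex-C was 0.74, 1.86 and 0.75 in mutant replicates 1 to 3, against 0.86, 0.74 and 0.64 in control replicates 1 to 3. The means were 1.12 ± 0.64 and 0.74 ± 0.11 (SD, n = 3 each), and they differed by 0.37 (SE 0.38). The two-sided exact permutation test gave p = 0.50, where 0.10 is the smallest that 3 against 3 arrays allow. Without mutant replicate 2 the means differed by 0.00 (SE 0.06, exact permutation p = 1.0), so the higher mutant mean rested on that array. Probe sets differ in response, so the size of the difference within an array is no ratio of the transcripts.

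In the pentose phosphate pathway, where Zw and Pgd act, 5 of 8 listed genes were measured, all autosomal. Of these, 4 were above 0 and 1 below, with a median of 0.09, and 0 passed limma's test in either direction at adjusted or unadjusted p. Rpi, the ribose-5-phosphate isomerase gene, was at 0.17 (SE 0.16, limma adjusted p = 0.894) and CG5103, a transketolase family gene, at -0.17 (SE 0.17, limma adjusted p = 0.925). The list of kynurenine and eye pigment genes that holds v had 6 of 7 listed genes measured, all autosomal. It had 3 above and 3 below 0, a median of 0.00 and 0 past the test at adjusted or unadjusted p. The list is wider than the pathway that starts with v, as it also holds the eye pigment gene bw. Here cn (cinnabar), the kynurenine 3-monooxygenase gene, was at 0.25 (SE 0.19, limma adjusted p = 0.85) with dim values between 2.80 and 3.52. KFase, the kynurenine formamidase gene that acts on the product of v, was at 0.16 (SE 0.16, limma adjusted p = 0.918).

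Purine synthesis, to which ras belongs, held the genes of the pathway lists with the smallest p. Most of its genes, ras among them, had their highest value in mutant replicate 2. Of 9 measured genes (of 11 listed), 8 were above 0, with a median of 0.16, and 0 passed limma's test after adjustment. Pfas, of the middle steps of the pathway, had 8.40, 8.77 and 8.0 in the mutants and 7.79, 7.45 and 7.53 in the controls, without overlap. Its difference was 0.80 (SE 0.22, 95% interval 0.28 to 1.31), with an unadjusted p of 0.00792 and a limma adjusted p of 0.436. The gene bur, which encodes GMP synthetase and acts directly after ras, had 8.56, 8.65 and 8.32 against 8.21, 8.14 and 8.17 (difference 0.34, SE 0.13, unadjusted p = 0.0419, limma adjusted p = 0.645), again without overlap. Of the 49 different genes of the pathway lists, only Pfas and bur had an unadjusted p under 0.05 in limma's test. Over all 18769 probe sets, 722 were lower and 688 higher at that unadjusted p, and 11.9% had groups without overlap. Pfas and bur were thus not read as a result for the pathway.

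The highest of the 6 values was in mutant replicate 2 for 7 of the 9 purine genes, against 34.6% of all brighter genes. This count was not planned in advance and includes ras itself, so it is a description only. For bur the value was 8.65, against 8.56 in mutant replicate 1. In other lists 4 of 8 autosomal marker enzyme genes were highest in mutant replicate 2. There 4 of 6 genes of the list with v were lowest, against 20.3% of all brighter genes. Paics, the other X-linked gene of the list, had 8.80, 11.10 and 9.77 in mutant replicates 1 to 3, against control values of 9.57, 9.69 and 10.20. Its difference was 0.07 (SE 0.54, limma adjusted p = 0.998), and it was -0.53 without mutant replicate 2. Prat2, of the first step, had 4.77, 9.49 and 8.16 in the mutants and between 7.18 and 8.13 in the controls. Gart, which encodes a protein of several steps, had 7.19, 9.75 and 8.07 against 7.69 to 8.31. In these 3 of the 9 genes mutant replicate 1 was the lowest array and mutant replicate 2 the highest. That was also the order of the fat body and glue medians. Prat2 and Gart were named after their values were seen, and the rest of the list did not show this order. Prat and Adss had their highest value in mutant replicate 1, and Pfas and bur had their second highest there. The summed level of the 3 measured fat body genes was between 12.09 and 15.30 in the mutants and between 14.08 and 14.79 in the controls (log2), with no marker value below 5.27. That of the glue genes was between 11.43 and 16.29 and between 15.35 and 15.91, with no value below 4.44. Their part in the values of ras and of the other purine genes was not tested. ras itself was not at its lowest in mutant replicate 1. Adss, of the branch from IMP to AMP, went the other way, with 11.30, 10.07 and 10.49 in the mutants and its lowest value in mutant replicate 2.

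**Figure D4:**
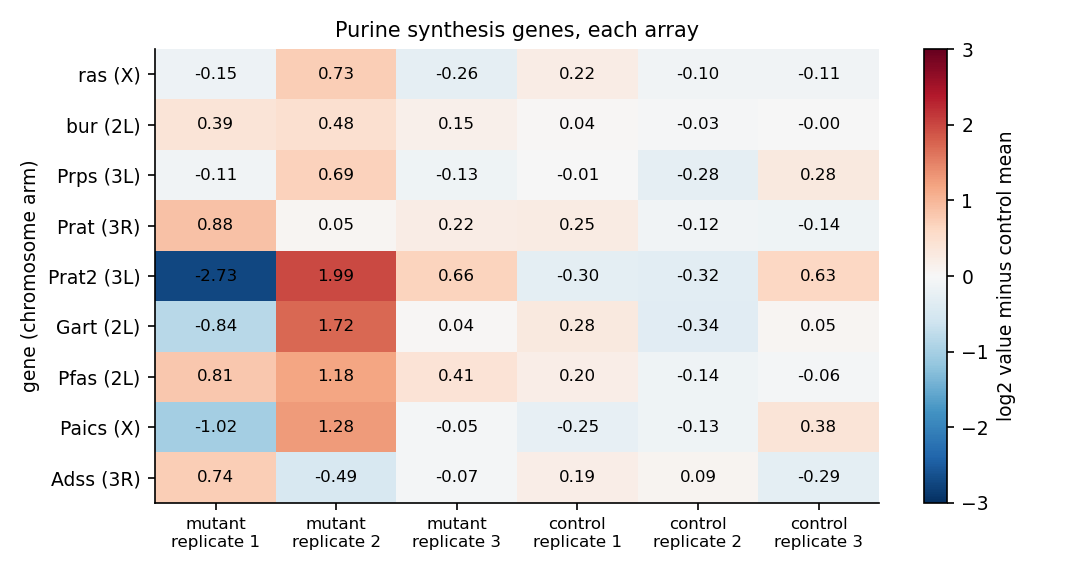
Log2 value minus the control mean in each array (colour scale and printed value) for the 9 measured genes of purine synthesis, with their chromosome arm. ras (X) is at 0.73 in mutant replicate 2 and at -0.15 and -0.26 in mutant replicates 1 and 3, and 7 of the 9 genes have their highest value in mutant replicate 2.

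Pyrimidine metabolism, the pathway of r, had 8 of 9 listed genes measured, 5 above and 3 below 0, with a median of 0.13 and 0 past limma's test at adjusted or unadjusted p. The X-linked su(r), a suppressor of rudimentary that encodes dihydropyrimidine dehydrogenase of pyrimidine breakdown, had 8.29, 6.27 and 7.25 in the mutants and 8.11, 7.59 and 7.0 in the controls. Its difference was -0.29 (SE 0.52, limma adjusted p = 0.987), and it was 0.21 without mutant replicate 2, its lowest array. Uck, a uridine-cytidine kinase gene, was at 0.31 (SE 0.13) and Ts, the thymidylate synthase gene, at 0.26 (SE 0.11), both without overlap between the groups and with limma adjusted p of 0.672 and 0.677. Groups without overlap were found in 11.9% of all probe sets. Neither Uck nor Ts is X-linked.

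A further list held 12 autosomal enzyme genes with long use as genetic markers, of which 8 were measured, 4 above and 4 below 0, with a median of 0.02 and 0 past limma's test at adjusted or unadjusted p. Idh, the isocitrate dehydrogenase gene, had 12.34, 12.18 and 12.22 in the mutants and 12.45, 12.57 and 12.39 in the controls. These groups did not overlap, as in 11.9% of all probe sets. Its difference was -0.22 (SE 0.12, limma adjusted p = 0.754). AOX1, an aldehyde oxidase gene, was at 0.33 (SE 0.41, limma adjusted p = 0.961; -0.06 without mutant replicate 1). Over the different genes of all 6 pathway lists, 49 in number, 32 were above and 17 (34.7%) below 0, with a median of 0.09. Of the 49, 5 are X-linked and 41 are among the brighter 50% of genes. Among the brighter genes of 2L, 2R, 3L and 3R 44.6% were below 0, with a median of 0.04, and over all probe sets 47.3%, with a median of 0.01.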

How the data were processed

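Expression was measured on 6 one-colour Affymetrix arrays of whole male larvae. The authors deposited log2 values made with RMA, 1 for each probe set on each array, per the labels. GCOS 1.4 is named in the submitters' processing notes, and which program ran RMA is not given in the sources used. Arrays have no read depth, and their number limits the precision.

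Groups and replicate numbers come from the sample titles. Gene names came from the platform annotation, which gives 13647 of the 18769 probe sets that are no controls a single symbol and 402 more than one, with 4720 unnamed here. RefSeq gave symbols, chromosome arms and gene order for 13544, and no coordinates are printed because the values name no build. For comparisons between genes, 1 probe set per gene was kept, the one with the highest mean, and the brighter 50% of genes were used for the X-linked and autosomal distributions. Differences were tested with limma 3.58.1 in R 4.3.3 (lmFit and eBayes, two-sided, with Benjamini-Hochberg adjustment over all 18769 probe sets, threshold 0.05), and plots used matplotlib 3.10.9. The fit was tested on simulated data. The genes and lists described were chosen with earlier results of these data known. The text names all probe sets of the enzyme genes, the X-linked members of each pathway list and its 2 other members with the smallest p, Gapdh1, Hex-C and the 6 most alike genes. D2hgdh, Prat, Prat2, Gart and Adss were named after their values were seen.

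Same-numbered mutant and control arrays had deviations from their group means that correlated at 0.17, -0.33 and 0.06 for numbers 1, 2 and 3. No shared pattern was thus seen, and the main fit did not pair the arrays. With 3 arrays per group these values cannot show whether arrays were handled in pairs. Other settings were limma's array weights, a trended prior variance, centring on autosomal genes, X-linked genes or all probe sets, 1 row per gene, the brighter 50% of probe sets, the replicate block, a covariate for the 3' to 5' ratio of control probe sets (log2), and leaving out each array.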

Additional observations from a re-analysis of the deposited data

How the results depend on the processing

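Neither the enzyme genes nor the shared probe set passed limma's test in any of 59 alternatives, where the smallest adjusted p was 0.346. The 59 count each probe set under each alternative setting, at most 15 per probe set, among them leaving out each array. No gene of the pathway lists passed the test either. Several signs were not stable. Leaving out single arrays gave -0.16 to 0.19 for Hex-A, -0.21 to 0.28 for ras, -0.33 to 0.15 for r, -0.35 to 0.07 for the shared probe set, -0.53 to 0.61 for Paics, -0.80 to 0.21 for su(r), -0.06 to 0.72 for AOX1, -0.71 to 0.19 for Hex-C and 0.00 to 0.56 for Hex-A minus Hex-C. With array weights ras was at -0.10, the shared probe set at 0.01, Paics at -0.31, su(r) at 0.04 and Hex-C at 0.01. Centring on autosomal genes put Hex-A at -0.03. Centring on X-linked genes, chosen after seeing the data, put r at 0.15, the shared probe set at 0.16, CG5103 at 0.10, Idh at 0.05 and the median of the enzyme genes at 0.28, by construction about 0.27 above the values without it. With the covariate for RNA quality (3' minus 5'), which has the limit given above, Paics was at -0.10. The median of the enzyme genes was between -0.16 and 0.15 without single arrays, and -0.05 with the shared probe set counted, an alternative added after seeing the data.

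Over all probe sets limma called 3 lower and 3 higher. These counts were 29 and 32 with array weights, 6 and 5 with a trended prior variance, 156 and 153 with the covariate, 6 and 12 with centring on X-linked genes, and 0 and 0 with the replicate block. The lower count was 8 with centring on autosomal genes and 7 on all probe sets, and the higher count was 0 with 1 row per gene. Leaving out single arrays gave 0 to 970 lower and 0 to 359 higher, the highest counts without mutant replicate 2. The cause was not tested. Under the replicate block the differences of Hex-A, ras and r stayed at 0.01, 0.10 and -0.12, since each number occurs once per genotype. The planned contrast of Gapdh2 with Gapdh1 was not run, as no probe set is named for Gapdh2 here.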

Other observations

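The array carries 7 control probe sets named for GAPDH, in 2 families, and the families did not move together over the 6 arrays. The 3 of the first family had Pearson correlations between 0.662 and 0.834 with the probe set of Gapdh1 and between -0.852 and -0.84 with that of Gpdh1, the glycerol-3-phosphate dehydrogenase gene. In the second family, whose names begin with r2, the 2 probe sets of the 3' end had correlations of 0.99 and 0.949 with Gpdh1 and of -0.538 and -0.453 with Gapdh1. The probe set of the middle had 0.837 with Gpdh1 and -0.21 with Gapdh1, and that of the 5' end had -0.2 and 0.012. The differences between genotypes were between -0.07 and 0.02 in the first family and between 0.00 and 0.05 in the second. The 3' probe set with the correlation of 0.99 also stayed within 0.06 (log2) of Gpdh1 on every array. Its largest gap to Gapdh1 was 1.58. The sources used do not say which transcript either family detects, of a GAPDH gene or of another gene such as Gpdh1. None of these values was therefore used for Gapdh2.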
